A study of Homo sapiens with 12 samples.

Results

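Cytokine receptors are cell surface proteins that hand the signal of a secreted factor to JAK kinases and STAT transcription factors. The 10 receptor genes described here, CSF2RA, CSF2RB, CSF3R, IL3RA, IL6R, IL10RA, IFNGR1, IFNAR1, GHR and PRLR, are the rows with these symbols in a table of raw read counts for 54628 genes. Of the 10, 9 had enough reads to be tested, among 15173 tested genes, and IL3RA had not. The table comes from OCI-AML3, an established human acute myeloid leukaemia line, treated for 24 h before its polyA RNA was read by paired-end sequencing. There were 4 groups of 3 libraries: DMSO, the solvent control; ABT199, which is venetoclax, an inhibitor of the survival protein BCL2; ERKi, an ERK inhibitor that the labels name compound 27; and Comb, ABT199 and ERKi together. The sources used here give no doses. All groups are the same line, and nothing in the labels says that replicates were separate cultures, so each p-value rests on the spread among these libraries, which may be technical.

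Receptors of this class have no kinase of their own. Binding of a ligand brings receptor chains together, the JAK kinases attached to their tails phosphorylate each other and the tails, and STAT proteins dock there, dimerize and move to the nucleus. Type I receptors bind haematopoietic growth factors, interleukins, growth hormone and prolactin, and type II receptors bind interferons and the interleukin-10 family. In myeloid cells the receptors for GM-CSF, IL-3 and G-CSF carry the signals for survival and for granulocyte and monocyte differentiation, and some of them also feed the RAS-ERK pathway.

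The promoters of 2 members are shown because their genes rose together with ERKi and parted when venetoclax was added. They are the 250 bases before the RefSeq start site (GRCh38.p14), written 5′ to 3′ on the gene's strand, and both windows lie outside the GENCODE gene. Capitals mark GAGGAAG or its reverse complement, a core recognized by the myeloid ETS factor PU.1. The first lies at chr5:42423189-42423438, plus strand, and the second at chr1:36483315-36483564, minus strand.
GHR: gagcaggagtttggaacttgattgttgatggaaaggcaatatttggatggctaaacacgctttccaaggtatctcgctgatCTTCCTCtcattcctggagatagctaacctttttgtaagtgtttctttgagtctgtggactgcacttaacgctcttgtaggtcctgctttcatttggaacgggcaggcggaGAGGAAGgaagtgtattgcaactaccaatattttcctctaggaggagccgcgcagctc
CSF3R: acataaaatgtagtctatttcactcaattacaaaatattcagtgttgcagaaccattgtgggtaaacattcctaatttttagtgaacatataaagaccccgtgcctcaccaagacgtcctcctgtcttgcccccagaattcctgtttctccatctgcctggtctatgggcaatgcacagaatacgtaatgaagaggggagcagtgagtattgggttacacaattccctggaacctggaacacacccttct
The GHR window held 2 matches, which began 169 and 58 bases before the start site, and the CSF3R window held none. RefSeq promoters were matched for 9 of the 10 members, with 1 start site per gene. The start sites used for IL10RA and PRLR lie 3597 and 112467 bases inside the GENCODE gene, so other promoters of these genes were not searched. In windows of the same length, GAGGAAG was found on either strand for 4 of these 9 (CSF2RA, IL6R, IL10RA and GHR) and in 11% of 27305 promoters. The STAT element TTCNNNGAA was found for 1 of 9, IL3RA, against 6.78% of promoters. The ETS core CCGGAAG (8.82% of promoters) and the interferon element ISRE (3.07%) were found for none of the 9. These motifs were chosen after the expression values were seen. GAGGAAG and CCGGAAG share their last letters but cannot match at the same position of a strand.

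Library totals ran from 19199296 to 21275065 counts. DMSO replicate 1 stood apart: a chi-square test of its counts gave 17.99 and 16.98 per degree of freedom against the other DMSO libraries, and other replicate pairs gave 2.32 to 5.53, so counts of calls are also given without it. Of 10 myeloid blast markers, 9 were tested, and KIT had 0 to 10 counts in every library. The summed level of these markers was 1168 to 1248 CPM (reads of a gene per 1e+06 reads of the scaled library) with DMSO or ABT199 and 2089 to 2198 CPM with ERKi or Comb. PTPRC and CEBPA made up most of this sum (972.3 and 729.3 CPM with ERKi). By edgeR at an adjusted p under 0.05, 8 of the 9 were higher and 1 lower than DMSO with ERKi (34.5% and 35.2% of all genes). Comb against ERKi gave 3 higher and 4 lower (26.5% and 24.3% of all genes).

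With ERKi alone all 9 tested receptor genes were higher than with DMSO, and with Comb 7 were higher and 2, IFNAR1 and GHR, were lower. Across all tested genes, 34.5% were higher and 35.2% lower with ERKi (69.7% called in either direction), and 30.4% were higher and 33.4% lower with Comb (63.8% in either direction). Genes count as called here when edgeR's quasi-likelihood test gave an adjusted p under 0.05. The median log2 fold change of the 9 was 1.37 with ERKi and 0.43 with Comb, against 0.01 and -0.01 over all genes. Both comparisons share the DMSO libraries. The counts were the same without DMSO replicate 1. Over all alternatives, 7 to 9 were higher with ERKi, and with Comb 6 or 7 were higher and 1 or 2 lower. CSF2RA was not tested under some of these.

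Venetoclax alone gave a call for 0 of the 9 receptor genes in edgeR, in DESeq2 and in limma-voom, with 1 of 9, CSF3R, at an unadjusted p under 0.05. The background was low too, with 0.402% of all genes called, 0.0198% higher and 0.382% lower. Added to ERKi, venetoclax went with higher CSF3R and PRLR and with lower IL10RA, IFNAR1 and GHR (Comb against ERKi, with 26.5% of all genes higher, 24.3% lower and 50.9% called). The same 5 genes passed the test of the interaction, that is, of the difference between the log2 effect of venetoclax with ERKi and without it, in which 39.2% of all genes were called. Without DMSO replicate 1, Comb against ERKi gave 3 higher and 4 lower, the added calls being CSF2RB (0.11, adjusted p = 0.0387) and IFNGR1 (-0.13, adjusted p = 0.0437). Comb against ABT199 gave 7 higher and 2 lower (32.1% of all genes higher, 34.2% lower, 66.2% called), and ERKi against ABT199 gave 8 higher and none lower (35.2% of all genes higher, 35.4% lower, 70.6% called).

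**Figure D1:**
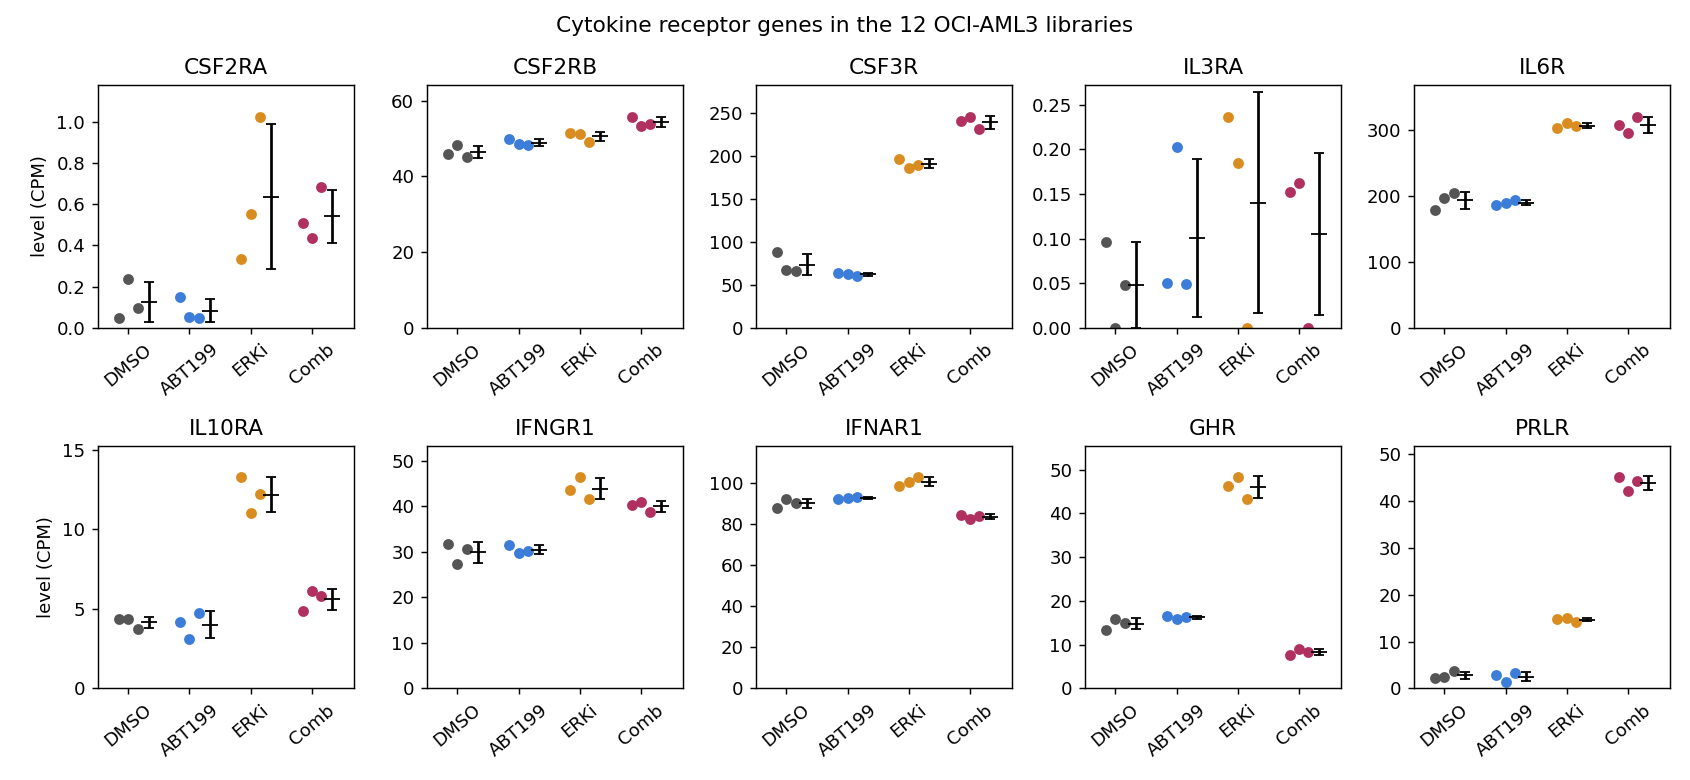
Levels of the 10 receptor genes in CPM (linear axes, each from 0) in the 12 libraries of the 4 groups; points are libraries and black bars the mean ± SD of 3. GHR is highest with ERKi and lowest with Comb, while PRLR and CSF3R are highest with Comb.

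Per kilobase of exon (GENCODE 29 exons merged over each gene's transcripts), IL6R had the highest DMSO level of the 10, at 30 ± 2.02 CPM per kb (SD, n = 3), and IFNAR1 the next, at 14.3 ± 0.36. CSF2RB (9.27 ± 0.326), IFNGR1 (9.1 ± 0.701) and CSF3R (8.74 ± 1.48) did not differ beyond their spread. GHR lay at 2.24 ± 0.188, IL10RA at 0.513 ± 0.0441 and PRLR at 0.214 ± 0.0565 CPM per kb, and CSF2RA and IL3RA were close to 0. With Comb, CSF3R (28.4 ± 0.864) was the next after IL6R (47.8 ± 1.94), and PRLR (3.34 ± 0.113) lay above GHR (1.27 ± 0.0986). Exons of transcripts that the line does not use make these values too low by an amount that was not measured.

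CSF2RB is the beta chain through which GM-CSF, IL-3 and IL-5 signal (chromosome 22, 36913628 to 36940449, GRCh38). Its level was 45.8, 48.2 and 45.1 CPM in the DMSO libraries, 49.9, 48.4 and 48.2 with ABT199, 51.3, 51.1 and 49.1 with ERKi, and 55.8, 53.3 and 53.8 with Comb. The Comb libraries were the highest in each comparison, although the range of all 12 was narrow. It rose by 0.23 on the log2 scale with Comb against DMSO (SE 0.0483, adjusted p = 0.000584). The difference with ERKi was 0.12 (SE 0.0481, adjusted p = 0.0299) and was called under 10 of 19 alternatives, with adjusted p from 0.00753 to 0.264. It was lost without DMSO replicate 3, ERKi replicate 1 or 2, or any 1 of the ABT199 libraries, with adjusted p from 0.0541 to 0.147. The call was also lost in DESeq2 (0.0529), with only the libraries compared (0.12) and with no filter on low counts (0.264).

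The alpha chains that give this receptor its ligand were nearly unread. CSF2RA, which binds GM-CSF, had 1, 5 and 2 counts with DMSO, 3, 1 and 1 with ABT199, 7, 12 and 22 with ERKi and 10, 8 and 13 with Comb. The ERKi and Comb libraries lay above all others, and CSF2RA was called with ERKi (log2 fold change 2.28, SE 0.602, adjusted p = 0.00298) and with Comb (2.04, SE 0.626, adjusted p = 0.00929), on 8 against 41 and 31 reads in all. IL3RA, the IL-3 alpha chain (CD123), had 0 to 5 counts in each library, and 24 in all 12, so no difference was detectable at this depth. Both genes lie in the pseudoautosomal region (X, 1268800 to 1310381 and 1336616 to 1382689), where the Y chromosome has an identical copy. The sources used here do not say whether that copy was masked. Other genes of the region were read unevenly, ASMTL at 10 to 272 counts and CD99 at 55 to 660, and 3 of 15 were at 0 in every library. Of these 15, 11 were tested, CSF2RA among them. With Comb 4 were higher and 0 lower than DMSO (median log2 fold change 0.80), against 30.4% and 33.4% of all genes. With ERKi 2 were higher and 0 lower (median 0.01), against 34.5% and 35.2%. The levels of CSF2RA and IL3RA are therefore uncertain.

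CSF3R, the G-CSF receptor, drives neutrophil production (chromosome 1, 36466043 to 36483278). Its level was 88.0, 67.2 and 65.8 CPM with DMSO, 63.2, 62.7 and 60.3 with ABT199, 196.8, 186.7 and 189.2 with ERKi, and 240.6, 246.1 and 231.7 with Comb. No Comb library overlapped an ERKi library, and no ERKi library overlapped a DMSO library. In bulk RNA, fewer cells of a type and less RNA per cell cannot be told apart, for this gene as for the others. CSF3R rose 2.59-fold with ERKi (log2 1.37, SE 0.0807, adjusted p = 1.4e-10) and 3.25-fold with Comb (1.70, SE 0.081, adjusted p = 1.92e-11). Comb was 1.25-fold above ERKi (0.33, SE 0.0772, adjusted p = 0.00214), and the interaction was 0.57 (SE 0.113, adjusted p = 0.000891). With ABT199 alone the difference was -0.25 (SE 0.0831, adjusted p = 0.388). DMSO replicate 1, the highest DMSO library, carried much of it: without that library it was -0.10 (adjusted p = 0.419), and the interaction was 0.43 (adjusted p = 5.2e-06).

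IL6R is the chain that binds interleukin-6 before the shared chain gp130 joins (chromosome 1, 154405193 to 154469450). Its level was 179.1, 197.8 and 204.2 CPM with DMSO and 186.5, 190.0 and 194.3 with ABT199. It was 303.6, 311.8 and 306.4 CPM with ERKi and 308.7, 296.1 and 321.1 with Comb. The ERKi and Comb libraries overlapped each other and lay above all others. IL6R rose by 0.67 on the log2 scale with ERKi (SE 0.0494, adjusted p = 2.88e-09) and by 0.67 with Comb (SE 0.0495, adjusted p = 4.25e-09). Comb against ERKi was 0.01, with a 95% interval from -0.10 to 0.11. The gp130 gene IL6ST, named here as the partner of IL6R after its values were seen, followed another course. It rose from 18.0 ± 2.94 CPM to 32.4 ± 2.12 with ERKi (log2 0.85, adjusted p = 7.3e-07) and was at 21.5 ± 1.66 with Comb, lower than with ERKi alone (-0.59, adjusted p = 9.64e-05).

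GHR and PRLR, the receptors for growth hormone and prolactin, are close relatives that signal as pairs of the same chain through JAK2, and they moved in opposite directions when venetoclax was added to ERKi. GHR (chromosome 5, 42423777 to 42721878) was at 13.5, 16.0 and 14.9 CPM with DMSO and at 16.5, 16.0 and 16.2 with ABT199. It was at 46.3, 48.3 and 43.3 CPM with ERKi and at 7.74, 9.05 and 8.43 with Comb. The ERKi libraries were the highest and the Comb libraries the lowest, with no overlap. GHR rose 3.11-fold with ERKi (log2 1.64, SE 0.0767, adjusted p = 7.61e-12) and was 1.76-fold lower than DMSO with Comb (-0.82, SE 0.0873, adjusted p = 4.27e-07). Between Comb and ERKi it was 5.47-fold lower (-2.45, SE 0.0825, adjusted p = 9.45e-12). Venetoclax alone gave a difference of 0.14 (adjusted p = 0.647, 95% interval -0.04 to 0.31), and the interaction was -2.59 (SE 0.116, adjusted p = 1.05e-09).

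PRLR (chromosome 5, 35048756 to 35230589) was at 2.27, 2.50 and 3.65 CPM with DMSO and at 2.85, 1.42 and 3.21 with ABT199. It was at 14.9, 14.9 and 14.3 CPM with ERKi and at 44.9, 42.1 and 44.2 with Comb. The DMSO and ABT199 libraries overlapped, and ERKi and Comb formed separate steps above them. PRLR rose 5.22-fold with ERKi (log2 2.38, SE 0.178, adjusted p = 3.04e-09) and 15.5-fold with Comb (3.96, SE 0.171, adjusted p = 5.74e-12), the largest fold among the 9 receptor genes. Comb was 2.98-fold above ERKi (1.57, SE 0.141, adjusted p = 1.73e-07), and the interaction was 1.74 (SE 0.263, adjusted p = 9.68e-05). In counts, the libraries held 28 to 77 PRLR reads with DMSO or ABT199, 306 to 323 with ERKi and 777 to 888 with Comb.

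Among the type II receptors, IL10RA had the largest rise with ERKi. IL10RA, the ligand-binding chain for interleukin-10 (chromosome 11, 117986348 to 118003037), was at 4.35, 4.38 and 3.75 CPM with DMSO, at 4.19, 3.09 and 4.74 with ABT199, at 13.3, 11.0 and 12.2 with ERKi and at 4.86, 6.12 and 5.82 with Comb. The ERKi libraries stood well above the rest, and the Comb libraries lay just above those with DMSO or ABT199. IL10RA rose 2.92-fold with ERKi (log2 1.55, SE 0.153, adjusted p = 1.13e-07), and Comb was 2.17-fold lower than ERKi (-1.12, SE 0.15, adjusted p = 1.29e-05), with an interaction of -1.07 (SE 0.222, adjusted p = 0.00128). Comb was 0.43 above DMSO on the log2 scale (SE 0.16, adjusted p = 0.0277). That call was lost without DMSO replicate 3 (adjusted p = 0.106), Comb replicate 2 (0.105) or Comb replicate 3 (0.0783), and over all alternatives the adjusted p ran from 0.0166 to 0.106.

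IFNGR1 and IFNAR1 are ligand-binding chains for interferon gamma and for type I interferons. IFNGR1 (chromosome 6, 137197484 to 137219449) was at 31.7, 27.3 and 30.5 CPM with DMSO, at 31.5, 29.7 and 30.1 with ABT199, at 43.6, 46.3 and 41.6 with ERKi and at 40.2, 41.0 and 38.7 with Comb. All ERKi and Comb libraries lay above all DMSO and ABT199 libraries. It rose by 0.56 with ERKi (SE 0.0647, adjusted p = 8.46e-07) and by 0.42 with Comb (SE 0.0654, adjusted p = 2.79e-05) on the log2 scale.

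IFNAR1 (chromosome 21, 33324477 to 33359862) was at 87.8, 92.3 and 90.4 CPM with DMSO and at 92.3, 93.0 and 93.3 with ABT199. It was at 98.6, 100.5 and 102.8 CPM with ERKi and at 84.6, 82.5 and 83.9 with Comb. The ERKi libraries were the highest and the Comb libraries the lowest, in a narrow range. IFNAR1 rose by 0.16 with ERKi (SE 0.0434, adjusted p = 0.00372, but 0.0605 with no filter on low counts, the highest of its 19 alternatives) and was lower in Comb than in ERKi (-0.27, SE 0.0437, adjusted p = 9.57e-05). Its interaction was -0.31 (SE 0.0618, adjusted p = 0.000952). Comb against DMSO was -0.11 (SE 0.0439, adjusted p = 0.0425), a call that held under 7 of 19 alternatives (adjusted p 0.00701 to 0.259). It was lost without DMSO replicate 2 or 3, ERKi replicate 3 or any 1 of the Comb libraries, with adjusted p from 0.0531 to 0.115. Other scaling or filters, DESeq2, a replicate block and only the libraries compared also ended the call (adjusted p 0.0593 to 0.259).

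**Figure D2:**
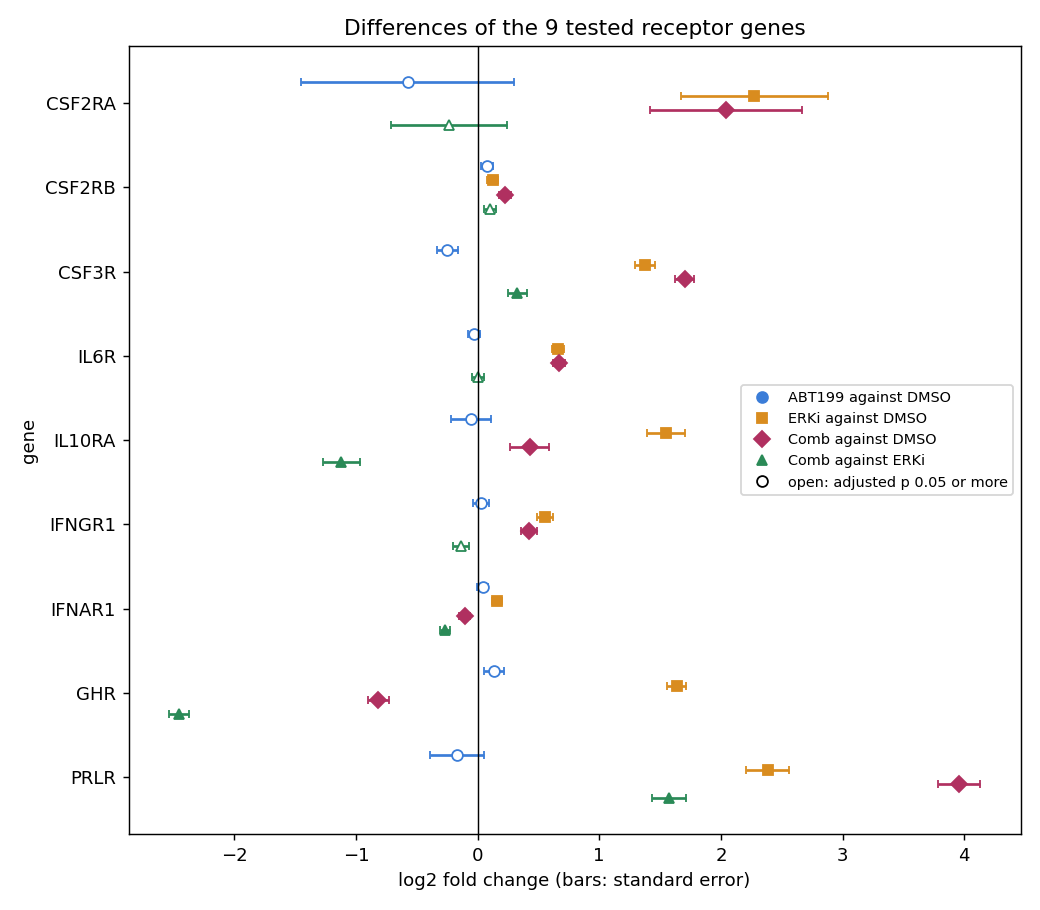
Log2 fold changes of the 9 tested receptor genes (points, bars are standard errors) in 4 comparisons; open symbols have an adjusted p of 0.05 or more. With ERKi all 9 points lie above 0, and Comb against ERKi runs from -2.45 for GHR to 1.57 for PRLR.

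Other receptor chains of the class, from lists drawn up for this description, went both ways. Of 25 other type I receptor genes 16 were tested. With ERKi 5 rose and 5 fell (median log2 fold change 0.00), and with Comb 5 rose and 6 fell (median -0.20). Over all tested genes, 34.5% were higher and 35.2% lower with ERKi, and 30.4% were higher and 33.4% lower with Comb. OSMR, the oncostatin M receptor, fell from 81.8 ± 3.77 CPM to 39.3 ± 0.622 with ERKi (log2 -1.06, adjusted p = 1.48e-11) and to 11.1 ± 0.683 with Comb (-2.88, adjusted p = 2.55e-15). LIFR, the chain for leukaemia inhibitory factor, fell by 0.59 with ERKi and by 2.10 with Comb on the log2 scale. IL31RA, which pairs with OSMR to bind interleukin-31, rose by 0.54 and 1.17. IL13RA1 (1.28 and 0.95) and IL11RA (1.86 and 1.75) rose in both comparisons, and LEPR, the leptin receptor, rose with ERKi (1.04) and was lower than DMSO with Comb (-0.49, adjusted p = 0.0253). IL7R fell from 80 to 110 counts a library with DMSO to 4 to 8 with ERKi and 1 to 5 with Comb. Of 8 other type II receptor genes 4 were tested, and 2, IFNAR2 (0.33 and 0.39) and IL10RB (0.34 and 0.34), the partners of IFNAR1 and IL10RA, rose with ERKi and with Comb.

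All 4 JAK kinase genes rose with ERKi, against 34.5% of all genes, with a median log2 fold change of 0.92. These were JAK2 (1.37), the kinase of GHR, PRLR and CSF2RB, TYK2 (1.05), JAK3 (0.79) and JAK1 (0.69). With Comb, 3 were higher than DMSO, against 30.4% of all genes: TYK2 (1.08), JAK2 (0.89) and JAK1 (0.33). JAK3 was at 0.13 (adjusted p = 0.457). JAK1, JAK2 and JAK3 were lower in Comb than in ERKi (-0.36, -0.48 and -0.66), and TYK2 differed by 0.03 (adjusted p = 0.706). In that comparison 24.3% of all genes were lower.

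Of the 7 STAT genes, 6 rose with ERKi (34.5% of all genes) and 4 rose with Comb (30.4% of all genes). STAT5A, a STAT that growth hormone, prolactin and GM-CSF activate, rose from 2.56 ± 1.03 CPM to 10.9 ± 0.689 with ERKi (log2 2.09, adjusted p = 3.3e-07) and was at 5.59 ± 0.48 with Comb (1.13, adjusted p = 0.000461). STAT5B moved less (0.17 and 0.12). STAT3, which IL6R and CSF3R signals activate, rose by 0.57 with ERKi and was at -0.10 with Comb (adjusted p = 0.108). STAT2, which type I interferon receptors use, rose by 1.69 with ERKi and by 0.82 with Comb, and was lower with ABT199 alone (-0.40, adjusted p = 0.00177). STAT6 rose in both (0.50 and 0.42), and STAT4, at 3 to 8 counts a DMSO library, rose with ERKi (2.07, adjusted p = 0.00189). In Comb against ERKi, STAT2 (-0.87), STAT3 (-0.67) and STAT5A (-0.97) were lower, as were 24.3% of all genes.

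Brakes on the pathway, ligands and known targets gave no common direction. Beside these lists, 34.5% of all genes were higher and 35.2% lower with ERKi, and 30.4% higher and 33.4% lower with Comb. Of 17 brake genes, 5 rose and 3 fell with ERKi and 3 rose and 5 fell with Comb (medians 0.05 and -0.16). SH2B3, an adaptor that restrains JAK2, rose by 0.72 and 0.69, SOCS5 rose by 0.61 with ERKi, and the phosphatase genes PTPN1 (-0.40 and -0.30) and PTPN6 (-0.35 and -0.32) were lower in both. Of 16 ligand genes only LIF, OSM and PRL were tested, and CSF2, IL3, IL10, IFNG, IFNA1, GH1 and GH2 were at 0 counts in all 12 libraries. LIF fell from 31 to 53 counts a library with DMSO to 13 to 26 with ERKi and 0 to 4 with Comb. PRL, the ligand of PRLR, rose from 5 to 8 counts a library to 17 to 33 with ERKi and 22 to 31 with Comb. Of 10 tested targets of STAT5 and STAT3, 4 rose and 3 fell with ERKi (median -0.03) and 2 rose and 2 fell with Comb (median -0.14). Among them PIM1 rose by 0.63 with ERKi, and ID1 rose by 0.30 with ERKi and by 2.20 with Comb. Of 9 tested interferon gamma targets, 4 rose and 2 fell with ERKi (median 0.18) and 2 rose and 3 fell with Comb (median -0.51). CIITA (1.66) rose and FCGR1A (-1.96) fell with ERKi, and GBP4 fell with Comb (-1.56).

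**Figure D3:**
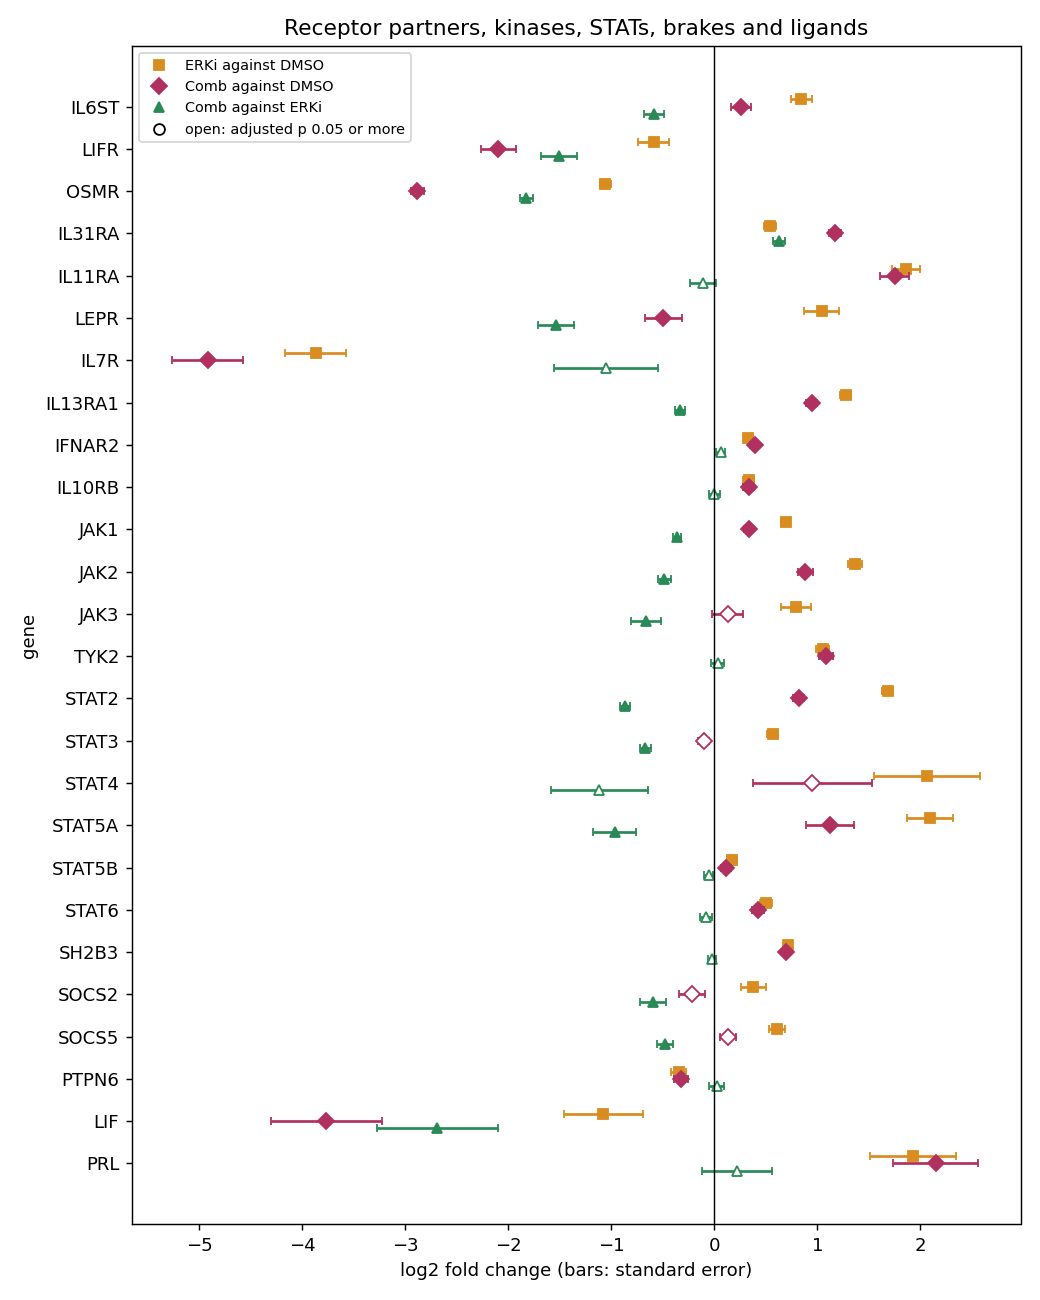
Log2 fold changes (points, bars are standard errors) of receptor partners, JAK kinases, STATs, brakes and ligands in 3 comparisons; open symbols have an adjusted p of 0.05 or more. All 4 JAK genes lie above 0 with ERKi, and OSMR, LIFR, IL7R and LIF lie below 0 with ERKi and further below with Comb.

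GHR, OSMR and LIFR are also read in connective tissue cells, and RNA of fibroblast markers was present and fell with Comb. Of 12 fibroblast markers 9 were tested, and 7 were lower in each comparison of Comb, with DMSO, ABT199 and ERKi. Of all genes, 33.4%, 34.2% and 24.3% were lower in these comparisons. The summed level of the 12 markers was 26.1 to 61.0 CPM with DMSO and 35.5 to 50.9 with ABT199. It was 28.4 to 48.5 CPM with ERKi and 14.0 to 15.7 with Comb. TWIST1 made up most of this sum with Comb (182 to 197 counts a library) and in DMSO replicate 1. In Comb against DMSO, TWIST1 fell by 0.66 on the log2 scale and COL1A2, at 12 to 18 counts a Comb library, by 4.09. THY1 and PRRX1 were at 0 in every Comb library. With ERKi GHR was at 43.3 CPM or more in libraries whose marker sum lay within the DMSO range. In DMSO replicate 1, where COL1A1 had 2 counts and COL6A3 had 1, the library held 279 GHR reads, 1603 OSMR reads and 161 LIFR reads. The other DMSO libraries held 314 and 339, 1776 and 1778, and 232 and 278 reads of these genes, and the Comb libraries held 153 to 167, 204 to 222 and 45 to 50. Within DMSO, all 3 genes were lowest in replicate 1, which had the lowest marker sum, and all 3 were lower still with Comb. The order differed within the other groups. With ERKi, GHR was highest (48.3 CPM) at the lowest sum (28.4 CPM) and lowest (43.3 CPM) at the highest (48.5 CPM). OSMR with ERKi was lowest (38.8 CPM) at the lowest sum. With ABT199, GHR was lowest at the highest sum and OSMR was highest at the lowest sum. LIFR followed the order of the sums with ABT199 and with ERKi. The Comb libraries held 4 to 14 COL1A1 and 0 to 2 COL6A3 counts. Not all markers were low in DMSO replicate 1: TWIST1 had 361 counts there against 305 and 330, and THY1 had 12 against 8 and 14. The part of fibroblasts or their RNA in the differences with Comb was not tested. The summed levels of epithelial (2.70 to 11.9 CPM), hepatocyte (5.64 to 12.9 CPM) and lymphoid markers (0.964 to 2.71 CPM) were lower. The epithelial sum was highest with ERKi (10.2 to 11.9 CPM), and CLDN7 made up most of it there (9.92 CPM). CDH1, KRT7, KRT8, KRT18, ESRP1 and GRHL2 had 0 to 10 counts in every library, and CLDN4 had 0 to 12. KRT19 had 16, 13 and 27 counts in replicate 2 of DMSO, ABT199 and ERKi, and 0 in all other libraries. EPCAM, FGB, TTR, CD3D and MS4A1 were at 0 in all 12 libraries.

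**Figure D4:**
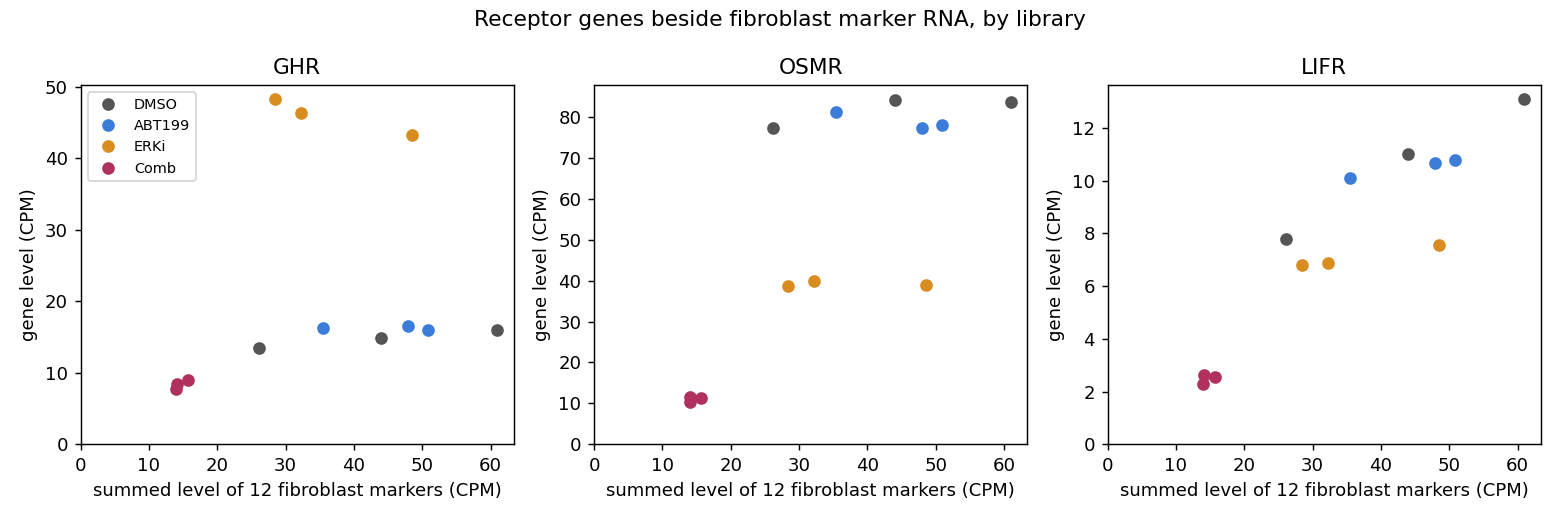
Levels of GHR, OSMR and LIFR (CPM) against the summed level of 12 fibroblast markers (CPM) in the same library, 1 point per library, coloured by group. The Comb libraries lie at marker sums of 14.0 to 15.7 CPM, most of it TWIST1, and the ERKi libraries have the highest GHR at sums within the DMSO range.

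The genes whose log2 levels followed each receptor most closely over the 12 libraries, which fall into 4 groups, differed from member to member. They are given as a description, and any gene with the same order of groups will score high. CSF3R was closest to TYMP (Pearson r 0.998) and SMOX (0.997), IL6R to SMCR8 and LAMC1 (both 0.997), and PRLR to CD93 (0.988) and TMEM255A (0.987). GHR was closest to MXI1 (0.991), which rose by 0.43 with ERKi and was at -0.30 with Comb (adjusted p = 0.000112), and to EXTL2 (0.987). IL10RA was closest to IFI30 (0.979) and MTSS1 (0.978), IFNAR1 to ZBTB1 (0.979) and HNMT (0.978), and IFNGR1 to MKX-AS1 (0.986) and PAX8-AS1 (0.983). CSF2RB had the loosest match, with TMSB4XP8 (0.94) and HIVEP1 (0.937), and CSF2RA matched ZNF550 (0.956) and ZSCAN29 (0.952).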

How the data were processed

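The members and all gene lists were chosen with earlier results of these data known. The authors deposited raw read counts per gene symbol, made with HISAT2, HTSeq and DESeq2 on hg38, per the submitters' processing notes. The sources used here name no versions, annotation or strand setting, and reads of antisense genes may be included. All 12 sample columns were used (0 unused), and 0 rows named no gene.

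The analysis used edgeR 4.0.16 (R 4.3.3): filterByExpr (minimum count 10, minimum total 15), TMM scaling, 1 coefficient per group over all 12 libraries (8 residual degrees of freedom) and quasi-likelihood tests with Benjamini-Hochberg adjustment over 15173 genes. TMM takes most genes as unchanged, so differences are relative to them. Prior counts were 0.125 for log2 fold changes and 2 for correlations. The common biological coefficient of variation came to 0.073. CPM is the count over the scaled library size, times 1e+06. The pipeline was tested on simulated data.

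Named were all members, JAK and STAT genes, up to 4 called genes of each other list by adjusted p in each comparison, and for each member the 2 genes of mean CPM at least 5 with the highest r. Of the genes this rule took, 1 is not reported here. Results were recomputed with each library left out, with only the libraries compared, with a block for the replicate number, without a filter or keeping CPM 1 in 3 libraries, with limma-voom (limma 3.58.1), with DESeq2 1.42.0 and with RLE size factors. Positions and exon lengths are from GENCODE release 29, promoters from RefSeq. Figures were drawn with matplotlib 3.10.9.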

Additional observations from a re-analysis of the deposited data

Results flagged for a closer look

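Of the 9 tested receptor genes, 5 had an effect of venetoclax that differed with and without ERKi by the interaction term of the edgeR model, in which 39.2% of all genes were called. The differences are on the log2 scale, as the effect with ERKi minus the effect without it. CSF3R differed by 0.57 (SE 0.113, adjusted p = 0.000891), with -0.25 for venetoclax alone and 0.33 on top of ERKi. PRLR differed by 1.74 (SE 0.263, adjusted p = 9.68e-05), with -0.17 alone and 1.57 on ERKi. GHR differed by -2.59 (SE 0.116, adjusted p = 1.05e-09), with 0.14 alone and -2.45 on ERKi. IL10RA differed by -1.07 (SE 0.222, adjusted p = 0.00128), with -0.05 alone and -1.12 on ERKi. IFNAR1 differed by -0.31 (SE 0.0618, adjusted p = 0.000952), with 0.04 alone and -0.27 on ERKi. These 5 calls kept their direction and passed the threshold under all 18 alternatives that allow this test. In each of the 5, the 3 Comb libraries lay on one side of the 3 ERKi libraries without overlap. The same held for CSF2RB and IFNGR1, whose interactions were not called (adjusted p = 0.785 and 0.178). The share of all genes with such a separation was not computed.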

How the results depend on the processing

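Of 1175 values recomputed for the members under the alternatives, 1119 kept their direction and their side of the threshold, 37 lost a call, 4 gained one and 15 changed sign, of which 0 were called. With no filter on low counts, venetoclax against DMSO called 1 member (CSF3R, adjusted p = 0.0107) in place of 0, and 242 genes in place of 61. With only the libraries compared it called 33 genes, 1 higher and 32 lower, and leaving out 1 library gave 33 (without ABT199 replicate 3) to 98 (without DMSO replicate 1). The other members' counts with 1 library left out ran over 8 to 9 (ERKi against DMSO), 7 to 9 (Comb against DMSO or ABT199), 5 to 7 (Comb against ERKi) and 7 to 8 (ERKi against ABT199).

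Signs changed for values smaller than their standard error. The largest was CSF2RA in venetoclax against DMSO (-0.57, SE 0.876), a gene of 1 to 5 counts in these libraries. With 1 library left out, venetoclax against DMSO ran from -1.24 to 0.20 for CSF2RA (the latter without DMSO replicate 2), -0.079 to 0.013 for IL6R (without DMSO replicate 3), -0.19 to 0.10 for IL10RA (without ABT199 replicate 2), -0.032 (without DMSO replicate 2) to 0.075 for IFNGR1 and -0.39 to 0.11 for PRLR (0.065 without DMSO replicate 3, 0.107 without ABT199 replicate 2). Comb against ERKi ran from -0.54 to 0.28 for CSF2RA (without ERKi replicate 3) and from -0.035 to 0.023 for IL6R, which was also at -0.011 with the CPM filter and -0.004 with only the libraries compared. The interaction ran from -0.43 (without DMSO replicate 2) to 1.01 for CSF2RA and from -0.007 to 0.089 for IL6R. It could not be fitted with only the libraries compared.

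Over all tested genes, deviations of same-numbered libraries correlated at -0.074 to 0.094 over 18 pairs, with 0 over 0.1. Of 12 libraries, 4 correlated best with their own number. KRT19 was an exception, at 16, 13 and 27 counts in replicate 2 of DMSO, ABT199 and ERKi and at 0 in all other libraries. Whether same-numbered libraries share a preparation was not tested. With the replicate number as a block, venetoclax called 48 genes and ended 1 member's call, IFNAR1 in Comb against DMSO (-0.107, adjusted p = 0.0593 over a range of 0.00701 to 0.259). Scaling with RLE moved the median of all genes by under 0.1 in each comparison. Low counts limit CSF2RA and IL3RA, and the 3 libraries per group limit the small differences of CSF2RB and IFNAR1.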
